A study of Arabidopsis thaliana with 8 samples.

Results

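The mitochondrion-encoded genes of Arabidopsis thaliana were taken as every gene row whose identifier begins with ATMG, which gave 146 of the 32678 gene rows in each count table. They were followed in 8 RNA-seq libraries of whole plants. The plants were the wild-type accession Col-0, an empty vector control line that expresses VP16 alone, and the lines T31-5 and T43-11, which express a 3F-VP16 fusion that the labels tie to salinity tolerance. VP16 is the transcription-activating domain of a herpes simplex virus protein. Each line was sequenced at 0 and at 75 mM NaCl, giving a lone library for each combination, and the 4 lines were used as replicates of a salt level. Plant age, the length of the salt treatment and the number of plants in a library were not given in the sources used here. Nothing says that libraries came from separate sowings, so a p-value here covers the spread among these 8 libraries and no more.

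Plant mitochondria keep a small genome of their own. It encodes ribosomal RNAs and some ribosomal proteins, core subunits of the respiratory complexes and of ATP synthase, and factors that attach heme to cytochrome c. The other subunits of the same complexes are encoded in the nucleus, made in the cytosol and imported. Salt stress is known to disturb respiration in leaves and roots. Chromosome 2 of Col-0 also carries a large insertion of mitochondrial DNA, so many mitochondrial genes have a near-identical nuclear copy.

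The reference annotation used here does not list ATMG identifiers as genes. Names were therefore given only to those ATMG rows that RefSeq notes on a nuclear gene describe as its best protein match. Such notes mention 53 of the 146 members, and 24 of these have a description other than an unknown protein. For 45 members a nuclear copy was found among the gene rows, with at least 80% of its length aligned to the mitochondrial genome at 98% identity or more. Of 14 mitochondrial genes compared base by base with the copy, 13 were identical over their whole length. These included atp9 (225 bases), the gene for the membrane ring subunit of ATP synthase, and atp1 (1524 bases), which encodes its alpha subunit. Transcript sequences were not compared. The first 120 bases of atp9, as genomic DNA, show such an identical pair:
mitochondrial atp9: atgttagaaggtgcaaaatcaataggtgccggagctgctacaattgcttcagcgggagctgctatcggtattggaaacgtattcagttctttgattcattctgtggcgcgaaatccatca
chromosome 2 copy AT2G07671: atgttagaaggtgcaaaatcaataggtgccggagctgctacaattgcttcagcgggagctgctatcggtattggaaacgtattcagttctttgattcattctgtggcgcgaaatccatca
The exception among the 14 was rpl2, the gene for a protein of the large ribosomal subunit, with 4 differences in 2701 bases. The 61 bases around the first isolated difference follow, with the differing base in capitals:
mitochondrial rpl2: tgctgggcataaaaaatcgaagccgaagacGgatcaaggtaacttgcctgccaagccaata
chromosome 2 copy AT2G07715: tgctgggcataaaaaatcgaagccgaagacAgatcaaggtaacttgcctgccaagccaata
These sequences are RefSeq's, assembly TAIR10.1, read 5′ to 3′ on the strand of the mitochondrial gene.

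Summed over the pairs, reads were divided between members and copies in much the same way in every library. The shares of single pairs were not followed by library. Over the 8 libraries, 3726 reads were counted on the 45 paired members and 4150 on their copies. The share on the members was between 46.1% and 48.6% in each library. Among the 23 pairs with at least 100 reads, the median share on the mitochondrial row was 47.2%, and 13 pairs lay between 40% and 60%. ATMG00560, whose copy aligns to rpl2, had 518 reads and the copy AT2G07715 also had 518. ATMG01080, a subunit 9 of the F0 part of ATP synthase, had 254 reads against 284 on AT2G07671. ATMG01190, ATP synthase subunit 1, had 591 against 866 on AT2G07698. Some pairs were uneven. ATMG01320, annotated as NADH dehydrogenase 2B and so a subunit of respiratory complex I, held 98.3% of the reads of its pair. ATMG01040, of unknown function, held 9.01%. The tables list 0 alignments as not unique in all 8 libraries. Copy rows can also be longer than the mitochondrial gene, as AT2G07671 is at 776 bases, so the shares compare rows and not equal stretches. A read count of a paired member is therefore uncertain as to its genome of origin.

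**Figure D1:**
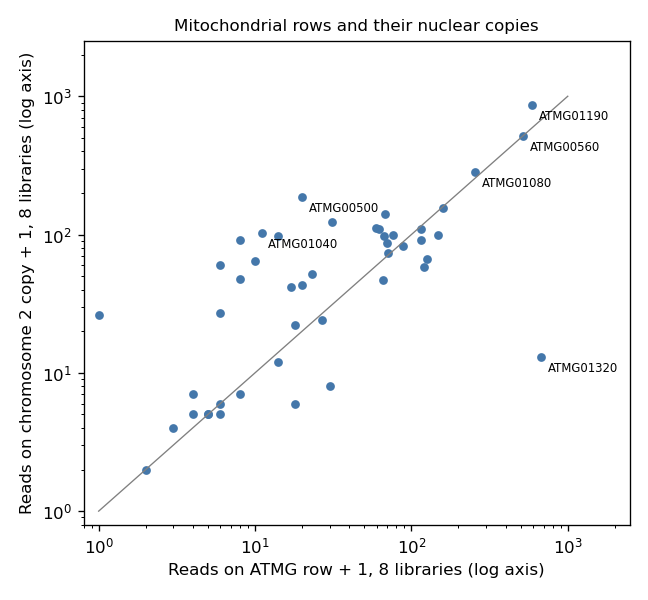
Reads summed over 8 libraries on each ATMG row (x axis) and on its chromosome 2 copy (y axis), each plus 1 on log axes, 1 point per pair; the line marks equal reads. ATMG00560 lies on the line with 518 reads on each side, and ATMG01320 lies far below it with 674 against 12.

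The mitochondrial rows took a small part of each library. Gene reads per library ranged from 13007480 to 22820814, and mitochondrial reads from 1877 to 3114. Of the 146 members, 19 had no read in any library, 53 had between 1 and 10 reads in all, 47 had over 10 and up to 100, and 27 had over 100. A count of 0 in a library allows a level of up to 0.131 to 0.231 reads per 1000000 gene reads (CPM), from 3 reads. All intervals and floors given here cover counting error only. ATMG00020 and ATMG01390 together held 53.8% of all mitochondrial reads, and the 10 highest rows held 78.2%. Row lengths were not used, so these shares describe reads and not levels per length.

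Some libraries stood apart from their labels' grouping. The T43-11 libraries at 0 and 75 mM differed at least 2-fold in 0.695% of 20585 genes, against 11.7% in Col-0, 9.88% in the empty vector control and 9.64% in T31-5. The chi-square per degree of freedom between their counts was 1.41, where counting noise alone gives about 1. The empty vector control and T31-5 libraries at 0 mM were nearly as close, at 1.42. The other 26 pairs of libraries gave 4.29 to 83.7. The T43-11 library at 0 mM was closest, after its own partner, to the T31-5 library at 75 mM, at 4.29, and stood at 50.8 from T31-5 at 0 mM. Whether the T43-11 library at 0 mM is the one its label names could not be settled from these counts, and the 4-line salt, class and interaction values all use it. Salt results are given with and without T43-11 below.

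In the summed level, T31-5 had the largest difference of the 4 lines. In Col-0 the mitochondrial rows summed to 144 CPM both without and with salt. The empty vector control had 140 CPM without salt and 135 CPM with it, and T43-11 had 128 and 124 CPM. T31-5 had 143 CPM without salt and 113 CPM with it, the lowest of the 8 libraries. The ratio of 75 to 0 mM was 0.789 in T31-5, with a 95% Poisson interval of 0.749 to 0.832. The intervals of the other 3 lines included 1. Their ratios were 1.001 (Col-0), 0.964 (empty vector control) and 0.975 (T43-11). These ratios depend on the scaling: with TMM factors, which set aside the genes that differ most, they were 0.909 (Col-0), 0.888 (empty vector control), 0.718 (T31-5) and 0.976 (T43-11), and then only the interval of T43-11 included 1. With a lone library for each line and salt level there is no replicate check of any of them.

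**Figure D2:**
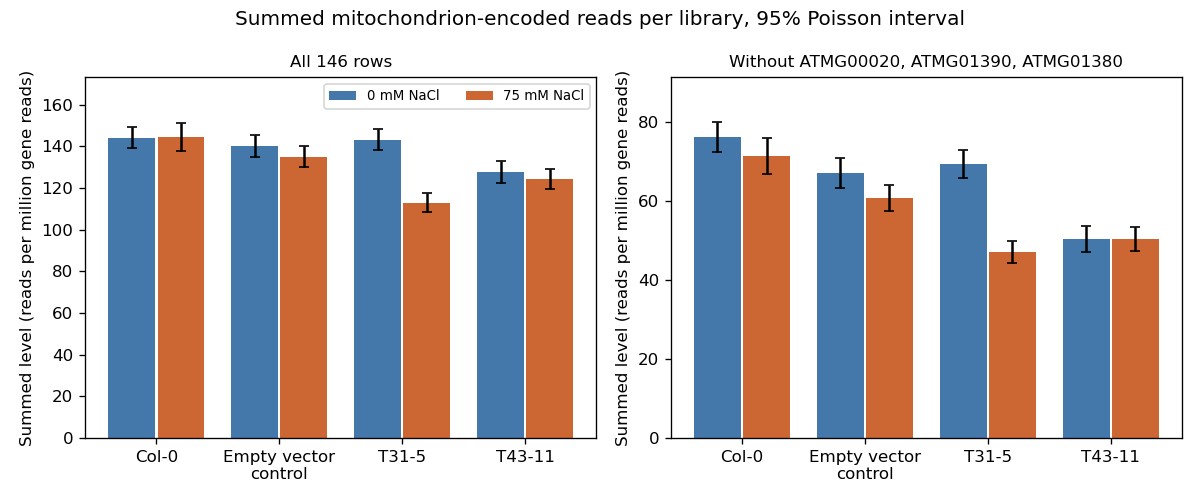
Summed level of the mitochondrion-encoded rows in each library, in CPM, at 0 mM (blue) and 75 mM NaCl (orange), for all 146 rows (left) and without the rows ATMG00020, ATMG01390 and ATMG01380 (right); error bars are 95% Poisson intervals, for counting error only. T31-5 falls from 143 to 113 in the left panel, and both T43-11 libraries lie near 50 in the right panel.

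The contrast was wider once 3 rows were set aside. ATMG00020, ATMG01390 and ATMG01380 were set aside as presumed ribosomal RNA rows, although the annotation used here gives them no name. ATMG01380 itself had only 74 reads over the 8 libraries. Together the 3 rows held 47.2% to 60.6% of the mitochondrial reads of a library. Without them the sum went from 76.1 to 71.3 CPM in Col-0 and from 67.0 to 60.8 CPM in the empty vector control. It went from 69.4 to 47.1 CPM in T31-5, a ratio of 0.679 with an interval of 0.627 to 0.735. The interval of the empty vector control, 0.839 to 0.981 around 0.907, also left out 1. Those of Col-0, 0.864 to 1.02, and of T43-11, 0.916 to 1.09, included it. With TMM factors the intervals were 0.784 to 0.923 for Col-0, 0.773 to 0.904 for the empty vector control and 0.571 to 0.669 for T31-5, and that of T43-11, 0.918 to 1.10, alone included 1. T43-11 had 50.3 CPM without salt and 50.4 CPM with it, so its untreated library lay with the salt-treated T31-5 library and not with the other untreated ones. The chloroplast-encoded rows, whose identifiers begin with ATCG, had a lower sum with salt in all lines. They summed to 674 to 1068 CPM at 0 mM and 542 to 646 CPM at 75 mM. In bulk samples, fewer cells of a type and less RNA per cell cannot be told apart.

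ATP synthase makes ATP from the proton gradient. ATMG01190, its subunit 1, was at 4.41, 3.69, 3.50 and 3.43 CPM without salt and at 5.46, 3.67, 2.72 and 3.50 CPM with it, where the 4 values always stand for Col-0, the empty vector control, T31-5 and T43-11 in this order. The salt groups overlapped, and the fitted log2 change was -0.10 ± 0.17 (SE). ATMG01080, of the F0 ring, was at 2.74, 2.03, 2.67 and 1.02 CPM without salt and at 1.38, 1.24, 0.57 and 1.04 CPM with it. Its salt libraries lay below the untreated ones in every line but T43-11, whose libraries were alike. ATMG01090, also annotated as ATP synthase 9, was at 1.48, 1.02, 1.43 and 0.64 CPM without salt and at 1.08, 0.55, 0.44 and 0.80 CPM with it. ATMG00480, subunit 8 of the F0 part, was at 0.93, 0.54, 1.01 and 0.11 CPM without salt and at 0.31, 0.14, 0.18 and 0.24 CPM with it. Here too the 3 lines other than T43-11 were lower with salt, and the T43-11 library at 0 mM was the lowest of all 8. ATMG00410, subunit 6-1, was at 1.30, 1.12, 0.78 and 0.64 CPM without salt and at 0.92, 0.83, 0.44 and 0.33 CPM with it, lower with salt in all 4 lines.

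Among the rows that could be named, those of the respiratory chain did not share a direction. Whether rows without a name belong to the chain was not known from the annotation used here. ATMG01320, of complex I, which passes electrons from NADH to ubiquinone, was at 5.01, 4.55, 5.11 and 3.21 CPM without salt. With salt it was at 4.31, 3.58, 3.81 and 4.21 CPM, lower in every line but T43-11. ATMG00730, cytochrome c oxidase subunit 3 of complex IV, which reduces oxygen to water, was at 1.16, 0.48, 0.69 and 0.80 CPM without salt and at 0.92, 0.78, 0.44 and 0.80 CPM with it. Its salt groups overlapped, and lines went in both directions. ATMG00220, apocytochrome b of complex III, which passes electrons to cytochrome c, lay between 0.15 and 0.64 CPM over the 8 libraries with no common direction. ATMG00180, a cytochrome c biogenesis protein, was at 1.62, 0.96, 1.52 and 0.54 CPM without salt and at 1.08, 0.78, 0.96 and 0.47 CPM with it, lower in all 4 lines. ATMG00990, NADH dehydrogenase 3 of complex I, stayed between 0.23 and 0.60 CPM. Rows with fewer reads were not tested, among them ATMG01275, NADH dehydrogenase 1A, with 16 reads over the 8 libraries, ATMG00960, a cytochrome c assembly protein, with 29, and ATMG00900, of cytochrome c biogenesis, with 7.

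Among the ribosomal protein rows, ATMG00980, protein S12 of the small subunit, was at 0.60, 0.27, 0.41 and 0.75 CPM without salt and at 1.46, 0.64, 0.74 and 1.09 CPM with it. It was the 1 tested member higher with salt in all 4 lines, although the salt groups overlapped. Its copy AT2G07675 alone gave a log2 change of 0.25 ± 0.32 and was not called in edgeR. ATMG00560, whose copy aligns to rpl2, was at 3.29, 3.21, 3.04 and 3.91 CPM without salt and at 3.23, 3.17, 3.55 and 2.65 CPM with it. The groups overlapped widely. ATMG00290, protein S4 of the small subunit, lay between 0.26 and 1.08 CPM and ATMG00210, protein L5 of the large subunit, between 0.26 and 0.64 CPM, again with overlap. ATMG01270, protein S7, had 19 reads in all and was not tested.

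The rows with the most reads have no name in the annotation used here. ATMG00020 was at 35.8, 40.5, 41.8 and 47.5 CPM without salt and at 43.7, 44.4, 38.5 and 44.5 CPM with it, with T31-5 the lowest of the salt libraries. ATMG01390 was at 31.8, 32.0, 31.2 and 29.5 CPM without salt and at 28.8, 29.4, 27.1 and 29.1 CPM with it. It was lower with salt in every line, though by little in T43-11. Its highest salt library, at 29.4 CPM, lay just below its lowest untreated one, at 29.5 CPM. The share of all genes whose salt groups are separated was not counted. ATMG00090 was at 7.54 to 9.92 CPM over the 8 libraries and ATMG01360 at 1.18 to 3.31 CPM, both with overlapping groups. ATMG00030 lay between 1.30 and 2.09 CPM, ATMG00080 between 0.37 and 1.01 CPM and ATMG01380 between 0.21 and 0.87 CPM. ATMG00160 was at 6.40, 5.41, 6.67 and 4.71 CPM without salt and at 5.00, 4.68, 4.21 and 3.45 CPM with it. ATMG00580 was at 2.60, 2.84, 3.13 and 1.66 CPM without salt and at 1.85, 1.47, 1.45 and 1.28 CPM with it. These rows were lower with salt in every line, the difference being smaller in T43-11 for ATMG00580. ATMG00060 was at 4.27, 5.41, 4.74 and 2.30 CPM without salt and at 3.54, 3.85, 3.11 and 2.98 CPM with it, lower in every line but T43-11. The other rows ranged from 0.05 to 2.50 CPM for ATMG01370, ATMG00690, ATMG01170, ATMG00660, ATMG00110, ATMG01120 and ATMG00040 together, and overlapped between salt levels.

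Per length, genes could be compared only where a RefSeq mitochondrial gene was linked. Reads of the member were divided by the RefSeq mitochondrial gene length and those of each copy by that copy's own length, introns included, and the quotients were added. On this scale atp9 was highest of 14 genes, at 9.36 ± 4.56 CPM per kb (SD, n = 8 libraries of all lines and salt levels), followed by atp1 at 4.54 ± 0.865 and rps12 at 3.84 ± 1.43. The lowest atp9 library, at 3.60, lay below the highest atp1 library, at 6.06. Next came nad3 at 2.76 ± 0.642 and rpl2 at 2.48 ± 0.154, which did not differ beyond their spread. On the members' reads alone, atp9 was at 7.05 ± 3.57 and atp1 at 2.49 ± 0.534. The lengths of the ATMG rows themselves were not known, so the ranking is one of these quotients and not of transcript levels.

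The salt response was tested in edgeR's quasi-likelihood fit with line as a block, over the 20585 genes with at least 0.468 CPM in 2 libraries. Of the 146 members, 44 passed this filter, and they held 96.0% of mitochondrial reads. None was called at a Benjamini-Hochberg adjusted p of 0.05 by edgeR, and 0.0% of all genes were called. DESeq2 also called 0 members, where it called 8.49% of all tested genes. It gave no adjusted p to thinly read members such as ATMG00370, ATMG00480 and ATMG00513, which therefore could not be called. It listed 4 members, or 9.09%, at an unadjusted p under 0.05, against 22.2% of all genes. At an unadjusted p under 0.05 edgeR listed 10 of the 44 members, 9 lower and 1 higher with salt, where 29.2% of all tested genes passed that limit. The members' share in both directions was 22.7%. In the lower direction alone it was 20.5%, against 13.9% of all genes. The median log2 change of the 44 members was -0.39, against 0.02 over all tested genes, and 39 members lay below 0, against 46.7% of all genes. The CPM was lower with salt in all 4 lines for 8 members, or 18.2%, against 9.72% of all tested genes. The smallest unadjusted p-values belonged to ATMG00580, with a log2 change of -0.85 ± 0.22 (SE), ATMG00160 at -0.52 ± 0.14, ATMG00980 at 0.85 ± 0.28 and ATMG00513 at -1.66 ± 0.55. Their adjusted p-values in edgeR were 0.119, 0.119, 0.124 and 0.126.

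Without T43-11, 7 of the 44 members were called lower and 0 higher at an adjusted p of 0.05 in edgeR. That was 15.9% of the members, where 15.4% of all tested genes were called lower and 14.4% higher, so the share called lower was at the background. Every salt fit without T43-11 counted the empty vector control and T31-5 as separate lines, although their untreated libraries were nearly alike. None was run with these lines summed. The largest change was in ATMG00480, the F0 subunit 8, which fell by 2.17 ± 0.43 on the log2 scale (edgeR adjusted p = 0.0129). ATMG01080, of the F0 ring, fell by 1.41 ± 0.34 (edgeR adjusted p = 0.0241). ATMG00370, annotated as a Ycf1 protein, fell by 1.39 ± 0.42 (edgeR adjusted p = 0.0488). Of the rows with no name, ATMG00580 fell by 1.01, ATMG00060 fell by 0.61, ATMG00160 fell by 0.56 and ATMG01390 fell by 0.30. ATMG00980 had a log2 change of 0.97 ± 0.35 and was not called, with an edgeR adjusted p of 0.0814. The members' median was -0.47, against 0.01 for all genes. Leaving out any of the other 3 lines in place of T43-11 gave 0 calls among members and among all genes in edgeR, so these fits do not separate members from other genes. At an unadjusted p under 0.05 they listed 4 members without Col-0, 3 without the empty vector control and 2 without T31-5. That was 9.09%, 6.82% and 4.55% of the members, against 16.7%, 10.9% and 12.3% of all genes.

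**Figure D3:**
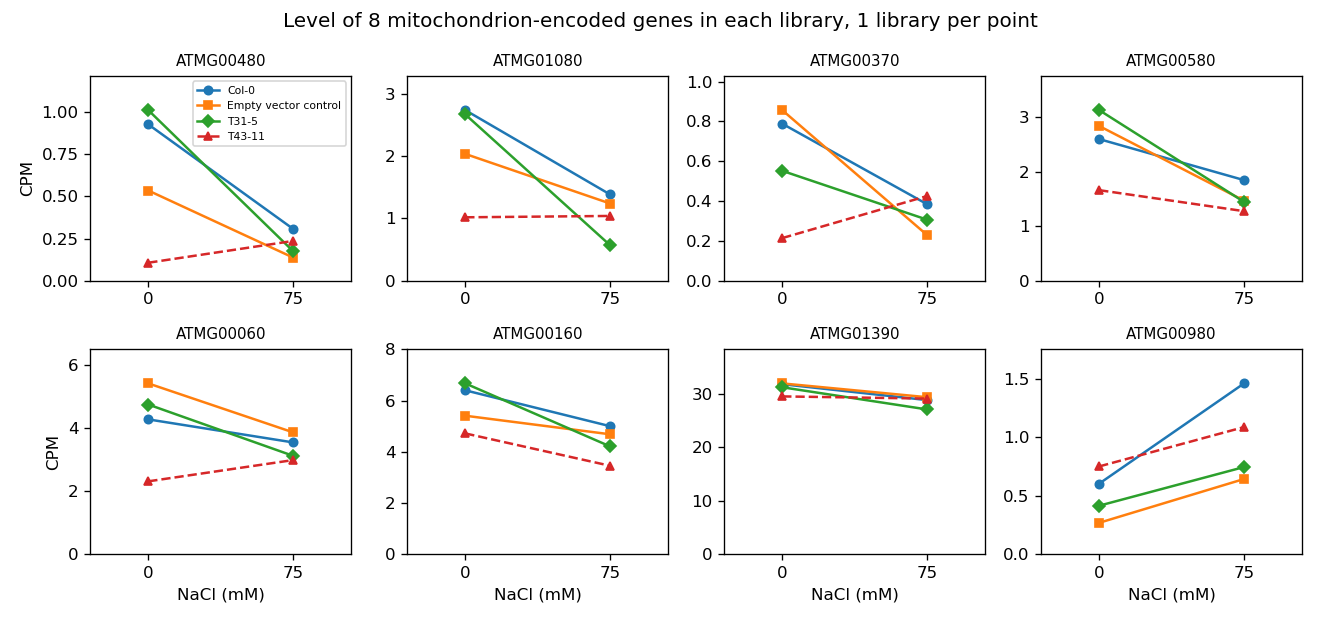
CPM (y axis, from 0) of 8 members at 0 and 75 mM NaCl, 1 point per library and 1 line colour and marker per plant line, T43-11 dashed. The first 7 panels are the members called lower without T43-11, and in ATMG00480, ATMG01080, ATMG00370 and ATMG00060 the T43-11 level at 75 mM is not below its level at 0 mM; the last panel is ATMG00980.

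Adding the reads of the nuclear copies to the paired members, a choice made after their identity was seen, let 52 members pass the filter and kept the 4-line count at 0. Without T43-11 it gave 9 calls, or 17.3%, all lower, where again 15.4% of tested genes were called lower. ATMG01080 with its copy fell by 1.33 ± 0.23 and ATMG00480 fell by 1.67 ± 0.30. ATMG00180, of cytochrome c biogenesis, fell by 0.80 ± 0.20 and ATMG01090, ATP synthase 9, fell by 1.02 ± 0.25, with edgeR adjusted p-values of 0.0257 and 0.026. ATMG00980 with its copy gave 0.57 ± 0.29, and 0.54 ± 0.23 with all 4 lines, against 0.97 and 0.85 without the copy, and was not called (edgeR adjusted p = 0.181 and 0.183). On their own, 2 of the 23 tested copies were called lower without T43-11, AT2G07671 at -1.23 and AT2G07815 at -0.92, the copies of ATMG01080 and ATMG00180.

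Within lines, T31-5 had more members far apart than the others. Members at least 2-fold apart between 75 and 0 mM, with 2 counts added to each library, numbered 3 of 44 for Col-0, 4 for the empty vector control, 10 for T31-5 and 3 for T43-11. The shares of all tested genes, given above, were 11.7%, 9.88%, 9.64% and 0.695%. The members' shares were 6.82% for Col-0 and 9.09% for the empty vector control, below those of all genes, and 22.7% for T31-5 and 6.82% for T43-11, above them. All 10 in T31-5 were lower with salt, where 2.24% of all tested genes were at least 2-fold lower. They were mostly thinly read, with 46 to 324 reads over the 8 libraries and 7 of them under 100. The median log2 ratio over members was -0.18 for Col-0, -0.20 for the empty vector control, -0.64 in T31-5 and -0.0047 in T43-11. Over all genes it was 0.14, 0.15, 0.17 and -0.00082, and 38 of the 44 members were below 0 in T31-5 against 27, 27 and 23 in the others. ATMG01080 gave -2.05 in T31-5, against -0.93 in Col-0 and -0.67 in the empty vector control. ATMG01280, annotated by the transmembrane domain of a cytochrome c oxidase subunit II-like protein, gave -2.37 in T31-5, -0.54 in Col-0 and 0.16 in the empty vector control. These are descriptions of pairs of libraries without a test.

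**Figure D4:**
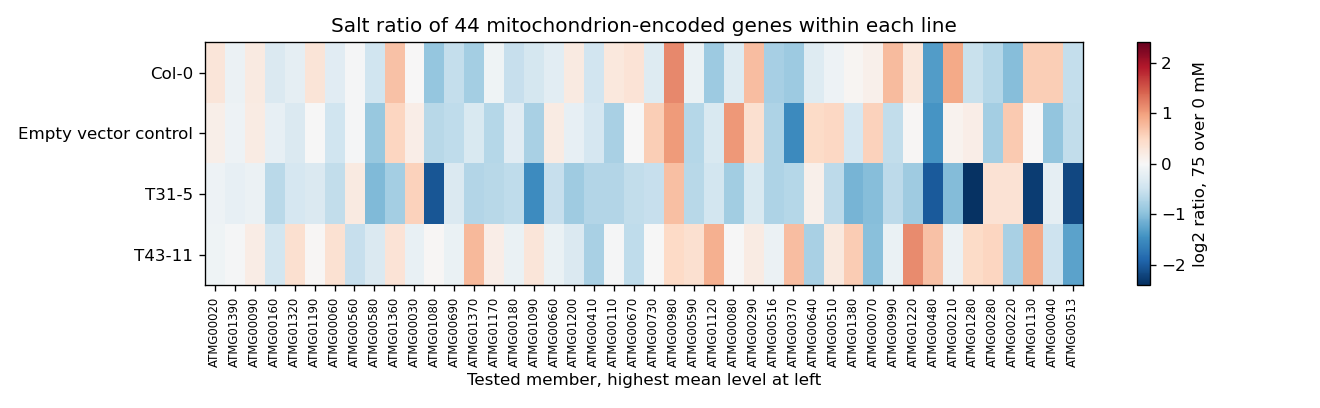
Log2 ratio of 75 to 0 mM NaCl (colour, red higher and blue lower with salt) for the 44 tested members (columns, highest mean level at left) in each of the 4 lines (rows). T31-5 is blue in 38 of 44 columns, and ATMG00980 is red in all 4 rows.

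The 3F-VP16 lines were compared with the control lines at each salt level, 2 libraries against 2, in a fit over all 8 libraries. At 75 mM edgeR and DESeq2 each called 0 members, against 0 and 18 of the 20585 genes tested. At an unadjusted p under 0.05, edgeR listed 2 of the 44 members, against 3.56% of all genes, and DESeq2 listed 0. The 2 were ATMG00410, ATPase subunit 6-1, at a log2 difference of -1.20 ± 0.41, and ATMG00070, at -1.57 ± 0.50. ATMG00410 was at 0.92 and 0.83 CPM in the control lines and at 0.44 and 0.33 CPM in the 3F-VP16 lines. Its edgeR adjusted p was 0.999. The share of all genes whose groups are separated in this way was not counted. The members' median difference was -0.48, with 40 of 44 below 0, against -0.0021 and 50.4% over all genes.

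At 0 mM, edgeR and DESeq2 also called 0 members, and 0 of all tested genes. Of the 44, 3 had an unadjusted p under 0.05 in edgeR, against 5.3% of all genes, and 0 in DESeq2. They were ATMG00410 at -0.86 ± 0.37, ATMG00516 at -1.06 ± 0.44 and ATMG00690 at -0.74 ± 0.28. The members' median was -0.32, and it was -0.07 without T43-11 and -0.76 without T31-5, nearest 0 without T43-11. The difference in salt response between 3F-VP16 and control lines was tested as an interaction. It called 0 members in edgeR and in DESeq2, against 0 and 2 of all tested genes. At an unadjusted p under 0.05 it listed 0 members with either tool, against 3.62% of all genes in edgeR.

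Nuclear genes for respiratory complexes, cytochrome c, ATP synthase, alternative respiration and mitochondrial gene expression were taken from 7 lists. Of these 50 genes, 46 were tested. In the 4-line salt fit edgeR called 0 of them, with a median log2 change of 0.08. At an unadjusted p under 0.05 it listed 14, or 30.4%, against the 29.2% of all genes. DESeq2 called 2, or 4.35%, against its 8.49% of all genes, with NDA1 lower and CYTC-1 higher. Without T43-11, edgeR called 9 higher, or 19.6%, and 3 lower, or 6.52%, beside the 14.4% and 15.4% of all genes given above, with a median of 0.07. The higher ones included the complex II genes SDH1-1 at 0.42 and SDH2-1 at 0.36, and CYTC-1, a cytochrome c gene, at 0.39. They also included the ATP synthase genes ATP3 at 0.25 and ATP5 at 0.19, the complex I gene EMB1467 at 0.24 and AT5G13430, the iron-sulfur subunit of complex III, at 0.29. NDA2, an alternative NADH dehydrogenase, rose by 0.52, and AT2G21640, on the same list, rose by 1.29. NDA1 fell by 1.38, from 234, 178 and 175 CPM to 86.3, 82.1 and 79.2 CPM in Col-0, the empty vector control and T31-5. It was at 79.1 and 75.9 CPM in T43-11, level with the salt libraries of the others. CYTC-2 fell by 0.36 and MGP3, a mitochondrial RNA polymerase, fell by 0.35. Of the complex IV list edgeR called 0 of 4, with 2 at an unadjusted p under 0.05, and its highest-mean genes, AT4G37830 and COX6B, gave 0.21 and 0.15. In the same fit, the nuclear ATP synthase list had a median of 0.17 with 0 of 7 called lower, beside the falls of the mitochondrial rows ATMG00480 and ATMG01080 given above. Those 2 were the only mitochondrial rows named here as ATP synthase that were called. ATMG01090 gave -1.14, ATMG00410 gave -0.71 and ATMG01190 gave -0.16 in this fit, none of them called.

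Markers of organs were examined because whole plants were sequenced. In the 4-line fit edgeR called 0 of the 14 tested markers and DESeq2 called 2, against 0.0% and 8.49% of all genes. At an unadjusted p under 0.05 edgeR listed 8, against 29.2% of all genes. Without T43-11, 6 of 6 leaf markers were called lower, 3 of 5 root markers higher and 2 of 3 tested flower markers lower. Of all genes, 15.4% were called lower and 14.4% higher in that fit. The root markers SCR and ADF8 gave log2 changes of -0.18 and -0.04 and were not called. The leaf markers summed to between 44138 and 57891 CPM at 0 mM and between 41583 and 44884 CPM at 75 mM over the 4 lines. The root markers summed to between 1193 and 2142 CPM at 0 mM and between 1589 and 2400 CPM at 75 mM. The flower markers summed to between 7.07 and 18.7 CPM at 0 mM and between 3.2 and 16.3 CPM at 75 mM, with AP1 at 0 reads in 3 libraries and AG in 2. The part of organ make-up in the mitochondrial results was not tested.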

How the data were processed

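The authors deposited 1 table of raw read counts per gene for each of 8 libraries. Reads were aligned with TopHat2 2.0.5 and counted with HTSeq on build TAIR10, per the submitters' processing notes. No source used here gives the counting mode, the strandedness or how RNA was selected. The 5 summary rows, 2.49% to 2.6% of each table's total, and 2 added rows that are no Arabidopsis genes stayed out of library sizes and tests. CPM is per 1000000 reads on gene rows. Counts were tested with edgeR 4.0.16 under R 4.3.3 (TMM factors, quasi-likelihood test, Benjamini-Hochberg adjustment) over genes with at least 0.468 CPM, or 10 reads at the median depth, in 2 libraries; DESeq2 1.42.0 was an alternative. Scripts were tested on simulated data. Salt was fitted with line as a block, since the same line gave a library at each salt level. Other fits used 4 groups of class and salt, or line, salt and their interaction with class. Members were linked to RefSeq TAIR10.1 nuclear genes by locus tag, and copies found with BLAST 2.17.0; no coordinates were transferred between builds. Named members were the highest by mean CPM in each group of a list, the rows called and the 4 of smallest p in the salt fit. The members and lists were chosen with earlier results of these data known. Single-library intervals are 95% Poisson intervals.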

Additional observations from a re-analysis of the deposited data

Results flagged for a closer look

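At 75 mM NaCl, ATMG00020 was at 43.7, 44.4 and 44.5 CPM in Col-0, the empty vector control and T43-11 and at 38.5 CPM in T31-5. The gap between T31-5 and the nearest line was 0.879 of the whole range of the 4 lines, above the critical value of Dixon's test for 4 values. The levels of 21 members and 2 sums were looked at in this way at each salt level, 46 sets of 4 libraries in all, and chance flags about 1 set in 20. In edgeR's interaction fit, 0 members and 0 of all tested genes differed in salt response between 3F-VP16 and control lines at an adjusted p of 0.05.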

How the results depend on the processing

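The count of called members stayed at 0 in the salt fit with RLE factors, no factors, no filter on low counts and no replicate block. It also stayed at 0 with the empty vector and T31-5 libraries summed. In these edgeR fits 0 of all tested genes were called, so the 0 is not particular to members. DESeq2 called 0 members and 8.49% of all tested genes, but left some members without an adjusted p. With each line left out in turn the members' count in edgeR ranged from 0 to 7, the 7 coming without T43-11. With the nuclear copies also added it was 9. Of 11 named members, no log2 change in salt turned its sign under any of these. The 11 were those called in a salt fit or of smallest p in the 4-line fit, so their choice favoured a steady sign. The signs of the other tested members were not followed. The class and interaction fits called 0 members with RLE factors, no factors, no filter, the nuclear copies added or DESeq2. Of all genes, edgeR called 0 under these alternatives. DESeq2 called 18 of all genes at 75 mM, 0 at 0 mM and 2 in the interaction. Leaving out a line there left 1 library in a group, assumed to vary like the others, so no count of calls is given for those fits. With no replicate block the 4-line salt fit still called 0 members, and 7 had an unadjusted p under 0.05. With no factors, the median of all genes moved to 0.12 and that of the members to -0.29 in the salt fit, so the members lay below all genes under each scaling. Scaled by TMM factors, the summed level was 160 CPM in Col-0 at 0 mM, 129 CPM in the empty vector control at 75 mM, and 148 and 107 CPM in T31-5 at 0 and 75 mM; the other 4 libraries stayed within their counting intervals. Without ATMG00020, ATMG01390 and ATMG01380, the sums were 76.1 and 71.3 CPM in Col-0, 67.0 and 60.8 in the empty vector control, 69.4 and 47.1 in T31-5, and 50.3 and 50.4 in T43-11. With 0.5 counts added in place of 2, 5 members of T43-11 were at least 2-fold apart. Depth limits these values: the median tested member had 118.5 reads over 8 libraries, and 102 members were not tested.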
